A study of Mus musculus with 20 samples.

Results

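Established epiblast stem cells were compared with the embryonic stem cells from which they were made. The comparison took the 8 libraries of days 19 to 30 against the 4 libraries of day 0, which are 12 of the 20 mRNA libraries of a mouse time course. Members were assigned from the sample labels alone, by the day of differentiation. The comparison itself was chosen with earlier results of these data known. Day 0 cells had been kept in 2i, a serum-free medium with inhibitors of MEK and GSK3. The other cells had been moved to N2B27 medium with activin A and Fgf2 on fibronectin, which yields epiblast stem cells, and were passaged until day 30. Female PGK cells and male E14 cells each went through experiments named diff2 and diff3, giving 4 differentiations with 1 library of day 0 and 2 late libraries each. The late libraries of PGK came from days 23 and 29 of diff2 and days 21 and 29 of diff3, and those of E14 from days 21 and 27 of diff2 and days 19 and 30 of diff3. Late libraries of the same differentiation come from the same culture and are not independent. With 1 line of each sex, effects of sex and of line cannot be told apart, and the labels name no genetic modification in any group.

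In the mouse embryo, pluripotent cells pass from a naive state before implantation to a primed state after it. Embryonic stem cells in 2i correspond to the naive state, in which Esrrb, Tfcp2l1 and the Klf factors keep the network running under LIF, STAT3 and Wnt input while FGF and ERK signalling is blocked. Epiblast stem cells depend on activin or Nodal and on FGF, express Fgf5, Otx2 and de novo DNA methyltransferases, form an epithelium, and show signs of the start of gastrulation.

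Expression is given in CPM, counts scaled to the library's size by TMM, which compares libraries for one gene and not one gene with another. Values of the 2i cells are listed in the order PGK diff2, PGK diff3, E14 diff2 and E14 diff3, and those of the established cells as the lowest, median and highest of 8. Total counts were 12318878 to 26936415 in 11 of the libraries and 3376500 in the E14 diff3 library of day 0, where 3 counts equal 0.892 CPM against 0.11 to 0.252 CPM elsewhere. Across genes the established libraries correlated at r = 0.967 to 0.995 (28 pairs), the 3 deep 2i libraries at 0.964 to 0.976, and 2i with established libraries at 0.887 to 0.909 (24 pairs without the shallow library). The shallow library stood apart, with r = 0.892 to 0.912 to the other 2i libraries. The E14 diff3 library of day 19 also stood apart for several genes named below. The 2 diff2 libraries of day 0 have titles with a code that is absent from the other 10, so results are also given without them where that matters.

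The 4 defining markers separated the states in the direction of their labels. Esrrb, an orphan nuclear receptor of the naive network (GRCm38, chromosome 12, 86361117 to 86521628), measured 815, 1190, 973 and 1610 CPM in 2i and 2.18, 2.88 and 7.42 CPM in established cells. Tdh, the mitochondrial threonine dehydrogenase (chromosome 14, 63492347 to 63509092), measured 452, 816, 717 and 1120 CPM against 0.0459, 0.267 and 0.566 CPM. Both fell without any overlap between the groups, with log2 fold changes of −8.33 for Esrrb (SE 0.33, adjusted p = 3.04e-10) and −11.5 for Tdh (SE 0.38, adjusted p = 8.24e-11). Fgf5, a growth factor of the post-implantation epiblast (chromosome 5, 98254184 to 98277030), went the other way, from 0.336, 0.0978, 1.35 and 0 CPM to 247, 335 and 412 CPM. Lefty1, a secreted inhibitor of Nodal (chromosome 1, 180935022 to 180938400), measured 2.69, 7.82, 6.31 and 9.81 CPM in 2i and 402, 548 and 722 CPM later. Here all 8 established libraries lay above all 4 of 2i, with log2 fold changes of 9.38 for Fgf5 (SE 0.48, adjusted p = 3.75e-09) and 6.45 for Lefty1 (SE 0.35, adjusted p = 6.99e-09). The markers were also used to check the labels, and none of the 12 libraries went against its label.

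**Figure D1:**
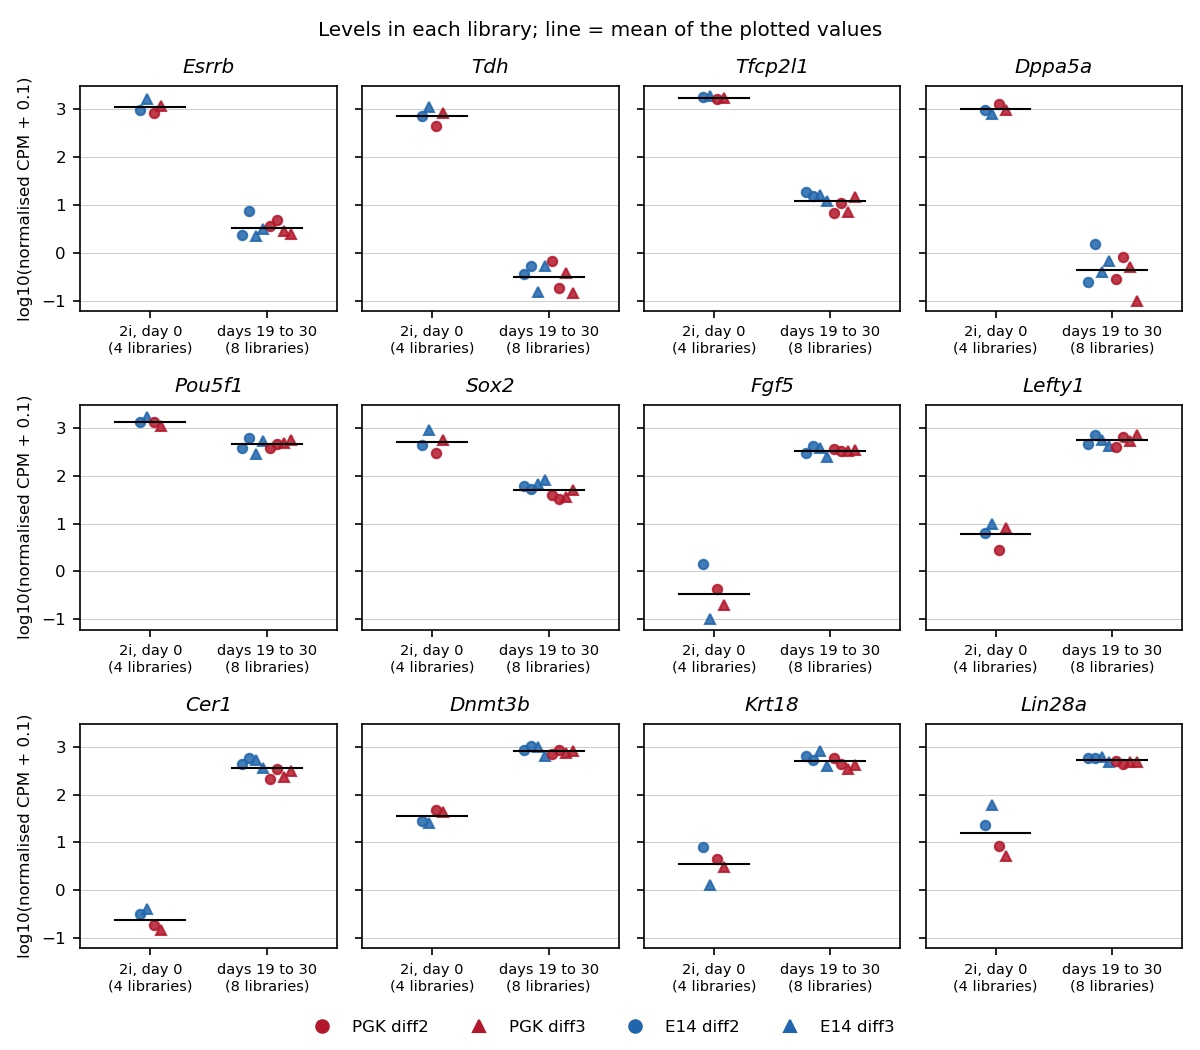
Level of 12 genes in each library on a log10 scale, with 0.1 added to the normalised CPM, for the 4 libraries of 2i cells and the 8 of established epiblast stem cells; colour gives the line, symbol the differentiation, and the horizontal bar the mean of the plotted values. In all 12 panels the 2i and established libraries form separate groups, with the smallest log2 change for Pou5f1, at −1.55.

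Of 15361 genes tested, 7184 passed an adjusted p of 0.05 (edgeR quasi-likelihood test with line as a term, Benjamini-Hochberg), which is a background of 46.8%. They split into 3603 higher (23.5%) and 3581 lower (23.3%) in established cells, and 7123 of the 7184 had the same sign of change in both lines. Such genes are referred to as called. The median log2 fold change was 2.43 among higher and −1.55 among lower genes, against 0.03 over all genes tested. A change of at least 32-fold was fitted for 723 higher and 575 lower genes. In 2521 genes (16.4%) all 8 established libraries lay above all 4 of 2i, and in 1684 (11.0%) all lay below. Because so many genes passed, counts of called list members are to be read against 23.5% higher and 23.3% lower. For members without overlap the background is 16.4% above and 11.0% below. The calls and adjusted p come from a fit that takes the 2 late libraries of a differentiation as separate samples. These libraries are not independent. With late libraries summed per differentiation 5201 genes were called, and 3783 with the differentiation also as a block. The lists were chosen with earlier results of these data known, so their counts describe the lists and are no independent support. The libraries came from whole cultures, so a change in RNA per cell and a change in the share of cells of a type cannot be told apart.

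**Figure D2:**
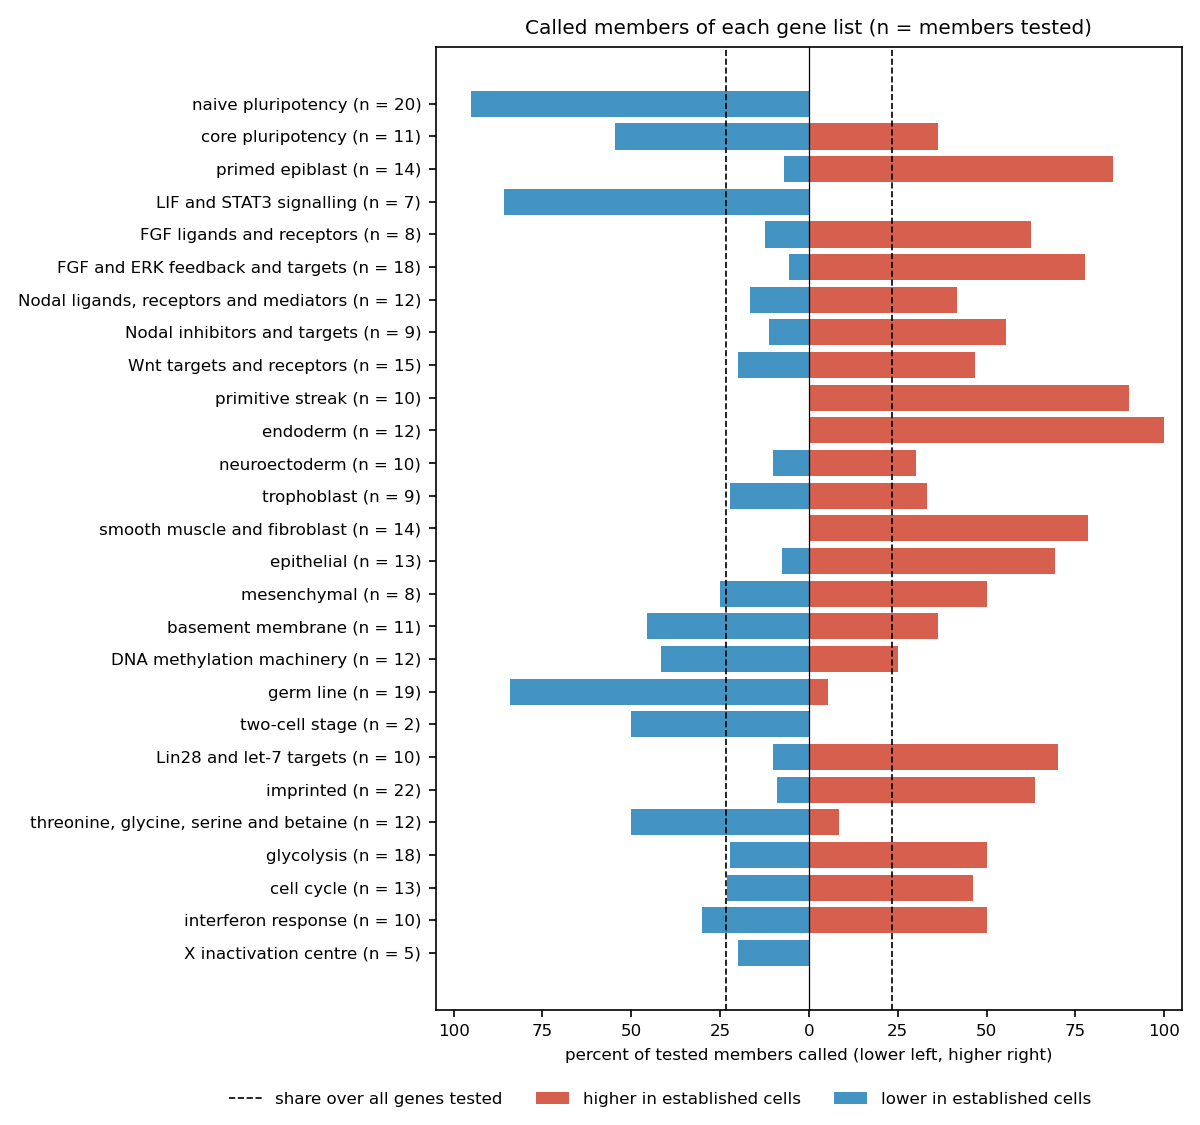
Percent of the tested members of each of 27 gene lists that were called higher (red, to the right) or lower (blue, to the left) in established cells, with the number of members tested in brackets and dashed lines at the shares over all genes, 23.5% and 23.3%. Naive, LIF and STAT3, and germ line genes lie to the left, and primed epiblast, primitive streak, endoderm and smooth muscle and fibroblast genes to the right.

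Naive pluripotency genes were lower in established cells almost throughout. Among its 20 members 19 fell and 0 rose (median log2 fold change −7.3, against 0.03 over all genes), and 18 did not overlap between the groups. The summed level of the list went from 7780 to 9570 CPM in 2i to 94.4 to 170 CPM. Tfcp2l1, a transcription factor that carries much of the LIF and Wnt input, measured 1630, 1710, 1790 and 1870 CPM and then 6.79, 13.1 and 18.3 CPM (log2 fold change −7.17, SE 0.21, adjusted p = 6.49e-11). The spread among the 2i libraries was small here beside the drop. Klf4, a zinc finger factor that LIF maintains, fell from 293, 443, 460 and 553 CPM to 1.88, 2.97 and 4.51 CPM (−7.18, SE 0.24, adjusted p = 8.24e-11). Klf2, its relative that ERK signalling degrades at the protein level, fell from 179, 237, 247 and 572 CPM to 0.551, 1.76 and 3.4 CPM. Prdm14, a repressor of FGF signalling in naive cells, stood at 99.3, 138, 78.4 and 101 CPM in 2i and had 2 counts in all 8 established libraries together. The Akt coactivator gene Tcl1 had 3 counts there, after 240, 129, 121 and 102 CPM in 2i.

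Among the remaining naive genes the size of the drop varied. Nanog, which primed cells still use, fell less than the factors above: it measured 961, 978, 643 and 625 CPM in 2i and 24, 60.6 and 110 CPM in established cells (−3.68, SE 0.29, adjusted p = 2e-07). Zfp42, the classic Rex1 marker, fell from 195, 378, 346 and 494 CPM to 0.254, 1.28 and 4.15 CPM. Dppa5a fell from 1260, 974, 986 and 809 CPM to 0, 0.35 and 1.4 CPM, although near-identical copies make its level uncertain. Fgf4, the FGF ligand of naive cells, fell by 4.32 (SE 0.23, adjusted p = 5.92e-09) and the adhesion molecule Pecam1 by 7.68 (SE 0.32, adjusted p = 4.43e-10). Gbx2 was the member that did not pass, at 4.29, 2.4, 14.4 and 0 CPM against 0.53, 0.766 and 3.04 CPM (adjusted p = 0.0528). It passed with DESeq2 (adjusted p = 0.0262), without the shallow 2i library (0.00432), without PGK diff2 at day 29 (0.0481) and without E14 diff3 at day 30 (0.0416).

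The LIF pathway fell with them, from the receptors to the targets. Of 7 members 6 fell and 0 rose (median −1.8). The receptor gene Lifr measured 66.1, 92.9, 97.2 and 227 CPM in 2i and 19.7, 30.8 and 53.9 CPM later (−1.8, SE 0.3, adjusted p = 0.000246), and its partner Il6st fell by 1.57 (SE 0.2, adjusted p = 1.9e-05). Stat3, the transcription factor they activate, went from 230, 173, 212 and 347 CPM to 50.7, 63.3 and 77.5 CPM. The groups did not overlap for these 3 genes. Socs3, a STAT3 target that feeds back on the receptor, fell by 4.06 (SE 0.29, adjusted p = 7.4e-08). The kinase gene Jak1 did not pass, at 84 to 158 CPM in 2i and 95.5 to 138 CPM in established cells. The Pim kinases that LIF induces parted by paralogue: Pim1 fell by 2.79 and Pim3 by 1.72, while Pim2, counted with the primed genes, measured 38.8, 18.3, 9.39 and 20.5 CPM and then 292, 341 and 377 CPM (4.02, SE 0.28, adjusted p = 6.94e-08). In the E14 libraries alone Pim1 did not pass (adjusted p = 0.0712).

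Core pluripotency factors, which both states use, changed less and in both directions. Of 11 members 4 rose and 6 fell (median −0.75), against 23.5% higher and 23.3% lower over all genes tested. Pou5f1 measured 1350, 1120, 1310 and 1710 CPM in 2i and 291, 477 and 624 CPM later, which kept the groups apart (−1.55, SE 0.18, adjusted p = 1.02e-05). Its partner Sox2 went from 304, 562, 446 and 916 CPM to 33, 52.5 and 82.4 CPM, a steeper fall (−3.39, SE 0.2, adjusted p = 1.78e-08). Dppa2 and Dppa4, neighbouring chromatin factor genes that prime developmental promoters, fell, with log2 fold changes of −3.89 and −3.78 (SE 0.47 and 0.46), to medians of 1.19 and 1.89 CPM. Rif1, a replication timing factor, fell by 0.91 (SE 0.15, adjusted p = 0.00021), and L1td1 did not pass. Sall4 at 93, 128, 175 and 224 CPM against 177, 232 and 355 CPM was called higher (0.68, SE 0.2, adjusted p = 0.0118), with overlap. Without the coded 2i libraries Sall4 did not pass (adjusted p = 0.0902) and 2 members were called higher, as with days 27 to 30 alone, and in E14 alone 1 was.

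Primed epiblast genes were the counterpart. Of 14 members 12 rose and 1 fell (median 4.22), and for 11 all established libraries lay above all of 2i. The list summed to 99.6 to 237 CPM in 2i and 1550 to 2000 CPM in established cells. Otx2, a homeodomain factor that redirects Oct4 to primed enhancers, rose from 35.9, 66, 8.64 and 52 CPM to 228, 252 and 532 CPM (2.85, SE 0.45, adjusted p = 0.000148). The highest of these values came from the E14 diff3 library of day 19. Pou3f1, the POU factor also called Oct6, rose from 1.51, 0.244, 0.976 and 0 CPM to 24.2, 45.1 and 68.9 CPM (5.89, SE 0.55, adjusted p = 1.24e-06). Sox11 rose from 0.636 to 1.6 CPM in 2i to 111, 160 and 195 CPM (7.42, SE 0.3, adjusted p = 3.45e-10). Epha1, an ephrin receptor gene, rose by 7.98 (SE 0.54) and the tight junction gene Cldn6 by 5.89 (SE 0.43). Foxd3, a forkhead factor of both states, was the member that fell, from 16.2, 29.7, 28 and 93.1 CPM to 6.16, 10.3 and 21 CPM with overlap (−1.75, SE 0.44, adjusted p = 0.00455), and PGK alone did not show it (adjusted p = 0.183). Grhl2, an epithelial enhancer factor, did not pass, at 12.4 to 81.7 CPM in 2i and 23.1 to 60.2 CPM in established cells.

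Most FGF ligands and receptors that passed rose. Of 8 tested members 5 rose and 1, Fgf4, fell (median 3.7). Fgf4 measured 368, 259, 297 and 344 CPM in 2i and 7.05, 17.2 and 25.9 CPM in established cells, and Fgf5 moved the other way as given above. Fgf8, a ligand of the primitive streak, rose from 1.09, 0.342, 0.15 and 0 CPM to 17.3, 39.1 and 69.9 CPM (6.62, SE 0.57, adjusted p = 5.81e-07), and Fgf15 by 4.64 (SE 0.85, adjusted p = 0.000524). Among receptors Fgfr2 rose by 3.38 (SE 0.76, adjusted p = 0.00228) and Fgfr3 by 4.02 (SE 0.68, adjusted p = 0.000271), neither with overlap. Fgfr1 at 225, 182, 96.6 and 17.5 CPM against 131, 224 and 246 CPM did not pass with edgeR (adjusted p = 0.0836), and did with DESeq2 (adjusted p = 0.0433). Without the shallow 2i library, or without the E14 diff3 library of day 19, 2 members were called lower. Fgf2, which the medium supplies, had 0 counts in 2i and 3 in established cells.

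Feedback genes and targets of ERK rose, a group that the MEK inhibitor of 2i is known to hold down. Of 18 members 14 rose and 1 fell (median 2.37). Dusp6, the ERK phosphatase, measured 3.87, 2.3, 3.68 and 8.33 CPM in 2i and 97.9, 174 and 220 CPM in established cells (5.3, SE 0.4, adjusted p = 1.32e-07). Egr1, an immediate early gene, rose from at most 0.526 CPM to 29.6, 32.2 and 59.1 CPM (6.72, SE 0.45, adjusted p = 4.49e-08). These groups lay far apart. Among the Sprouty and Spred inhibitors of receptor signalling, Spry4 rose by 5.06 (SE 0.68), Spred3 by 4.84 (SE 0.45), Spred1 by 2.51 (SE 0.16) and Spry1 by 2.03 (SE 0.27). Myc rose from 1.18, 2.84, 1.73 and 0.297 CPM to 36.9, 67.2 and 88.8 CPM (5.26, SE 0.41, adjusted p = 2.01e-07). Dusp4 stood at 35.7 CPM in the PGK diff2 library of 2i and at 0.297 to 0.676 CPM in the other 3, against 53.6 to 147 CPM later; it passed over both lines (adjusted p = 0.00496) but not in PGK alone (adjusted p = 0.0958). Etv5, an ETS factor expressed in both states, was the member that fell, from 170, 266, 232 and 325 CPM to 60, 114 and 154 CPM (−1.15, SE 0.23, adjusted p = 0.000859).

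In the Nodal pathway the summed levels of 2 lists moved in opposite directions, and no test compared the lists. Ligands, receptors and mediators summed to 839 to 1100 CPM in 2i and 661 to 813 CPM in established cells. Inhibitors and targets summed to 399 to 635 CPM in 2i and 1400 to 2210 CPM in established cells. Of 12 ligands, receptors and mediators 5 rose and 2 fell (median 0.19), against 23.5% higher and 23.3% lower over all genes tested. Nodal itself did not pass, at 23, 93.3, 58.6 and 120 CPM in 2i and 36.8, 48.7 and 62.4 CPM in established cells. It was called lower without the PGK diff2 2i library (−0.89, adjusted p = 0.00461) and without the coded 2i libraries (−1.07, adjusted p = 0.00158). Gdf3, a ligand of the same receptors, fell from 103, 105, 83.2 and 76.4 CPM to 0.643, 1.53 and 2.84 CPM (−5.82, SE 0.38, adjusted p = 3.86e-08). The coreceptor gene Tdgf1, or Cripto, fell by 2.99 (SE 0.32, adjusted p = 4.15e-06), from 186 to 562 CPM to 21.6 to 64.3 CPM. Receptor and mediator genes rose modestly where they passed: Acvr2a by 1.2 (SE 0.21), Smad4 by 0.67 (SE 0.12) and Smad2 by 0.59 (SE 0.14). In fits of either line alone, or of days 19 to 23 alone, 3 members were called higher.

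Of 9 Nodal inhibitors and targets 5 rose and 1 fell (median 2.02). Cer1, a secreted antagonist of Nodal, BMP and Wnt (chromosome 4, 82881751 to 82885148), measured 0.0841, 0.0489, 0.225 and 0.297 CPM in 2i and 215, 352 and 593 CPM in established cells (11.38, SE 0.35, adjusted p = 6.49e-11). It was among the 12 largest fitted rises of the comparison. Skil, a SMAD corepressor, rose by 2.02 (SE 0.24, adjusted p = 1.18e-05) and Eomes, a T-box factor of streak and endoderm, by 3.74 (SE 0.42, adjusted p = 7.3e-06). Lefty2, the neighbour of Lefty1, did not follow it: it measured 186, 174, 65 and 6.54 CPM in 2i and 22, 43.2 and 69.5 CPM later and did not pass (adjusted p = 0.117). Without the shallow 2i library Lefty2 was called lower (−1.68, adjusted p = 0.00107), as in PGK alone (−2.22, adjusted p = 0.000306). Smad7, an inhibitory SMAD, fell with overlap (−1.51, SE 0.35, adjusted p = 0.00294), though not in PGK alone (adjusted p = 0.252). Without the shallow 2i library, or without the PGK diff2 one, 2 members were called lower.

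Wnt targets and receptors, which the GSK3 inhibitor of 2i is known to raise, moved both ways. Of 15 members 7 rose and 3 fell (median 0.3), against 23.5% higher and 23.3% lower over all genes tested. Notum, a secreted Wnt deacylase, measured 19.5, 64.5, 51.1 and 119 CPM in 2i and 0.0459, 0.26 and 0.566 CPM in established cells (−7.97, SE 0.56, adjusted p = 7.4e-08). Cdx1, a caudal homeobox gene, stood at 5.72, 3.42, 34.6 and 30.6 CPM in 2i and had no counts in any of the 8 established libraries, at least 1110-fold lower with 3 counts over the group as the floor. Axin2, the usual readout of the pathway, was called lower with overlap, at 11.8, 46.4, 71.9 and 69 CPM against 4.57, 11.8 and 29.3 CPM (−1.96, SE 0.49, adjusted p = 0.00487). With the late libraries of a differentiation summed, Axin2 did not pass (adjusted p = 0.0568), nor in PGK alone (adjusted p = 0.385). Dkk1, a secreted Wnt inhibitor, rose from at most 0.44 CPM to 52.3, 76 and 215 CPM (8.62, SE 0.66, adjusted p = 1.73e-07), and the receptor gene Fzd7 by 2.94 (SE 0.3, adjusted p = 2.81e-06). Lgr5, an R-spondin receptor and stem cell marker, had 1 count in the 2i libraries together and measured 14.2, 21.7 and 49.1 CPM in established cells.

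Genes of the primitive streak and endoderm, the first lineages of gastrulation, were present in every established library. Of 10 tested streak members 9 rose and 0 fell (median 4.88), and the list of 11 summed to 23.7 to 39.6 CPM in 2i and 425 to 1090 CPM later. T, which encodes Brachyury, rose from 0.505, 1.17, 6.23 and 5.35 CPM to 45.4, 140 and 324 CPM (5.7, SE 0.81, adjusted p = 6.42e-05). Lhx1, a LIM homeodomain factor of the organizer, rose from 0.168, 0.0489, 0.526 and 1.19 CPM to 114, 219 and 308 CPM (9.47, SE 0.53, adjusted p = 8.85e-09). Mixl1, a homeobox gene of the streak, rose by 6.4 (SE 0.91) and varied most, from 1.67 to 73.7 CPM among established libraries, with the highest value in PGK diff3 at day 21. Tbx6, which marks later paraxial mesoderm, did not pass and reached at most 1.7 CPM.

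All 12 endoderm members rose, each without overlap (median 4.41), and their sum went from 34.7 to 84.8 CPM to 1060 to 2160 CPM. Sox17, an HMG box factor of definitive and visceral endoderm, rose from 1.77, 0.391, 0.451 and 0.297 CPM to 56.3, 90.2 and 198 CPM (6.96, SE 0.57, adjusted p = 3.61e-07). The pioneer factors Foxa1 and Foxa2 rose by 6.85 (SE 0.54) and 7.37 (SE 0.42), and Gata4 by 4.21 (SE 0.47). Cxcr4, a chemokine receptor of definitive endoderm, rose from at most 1.28 CPM to 51.1, 84.7 and 193 CPM. Trh, which encodes thyrotropin-releasing hormone, rose from 6.73, 9.78, 18.7 and 60.4 CPM to 196, 497 and 614 CPM (4.49, SE 0.57, adjusted p = 2.38e-05). The highest values of Sox17, Foxa1, Cxcr4 and Hhex came from the E14 diff3 library of day 19, whose endoderm sum of 2160 CPM compares with 1060 to 1610 CPM in the other 7. Without that library 11 of the 12 endoderm members and 8 streak members were called higher. Cer1 is in the endoderm and Nodal lists and Eomes and Fgf8 are in 2 lists each, so these counts share members.

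Markers of other lineages were mixed. Of 10 tested neuroectoderm members 3 rose and 1 fell (median 1.58), against 23.5% higher and 23.3% lower over all genes tested. The list of 11 summed to 114 to 226 CPM in 2i and 269 to 595 CPM later. Nes, the intermediate filament nestin, rose from 46.1, 23.6, 30.3 and 31.5 CPM to 78.1, 424 and 504 CPM (3.49, SE 0.4, adjusted p = 9.61e-06), with the low value in E14 diff3 at day 19. The defining neural genes Sox1 and Pax6 did not pass. Sox1 measured 7.15, 10.6, 6.68 and 31.8 CPM in 2i and 0.579, 3.02 and 12.8 CPM later, and was called lower without E14 diff3 at day 30 (adjusted p = 0.0472) and with days 19 to 23 alone (0.0325). Pax6 measured at most 0.421 CPM in 2i and 0, 0.163 and 15.7 CPM later, with 15.7 CPM in E14 diff3 at day 30 and 4.33 CPM in E14 diff2 at day 21. Sox21 was called lower (adjusted p = 0.0222), but not without the shallow 2i library (adjusted p = 0.333) or with the differentiation as a block (0.0543). In PGK alone, and with days 27 to 30 alone, 1 member was called higher, and without the PGK diff3 2i library 0 were lower, against 2 without E14 diff3 at day 30.

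Of 9 trophoblast members 3 rose and 2 fell (median 2.25), near the 23.5% higher and 23.3% lower over all genes tested. Their sum went from 164 to 335 CPM in 2i to 46.7 to 127 CPM later. The number called higher went from 0 to 6 over the alternatives, with 1 without the E14 diff2 2i library and 5 without the PGK diff2 library of day 29. The 2 that fell are also expressed in naive cells: Tfap2c, an AP-2 factor, from 93.8, 87.8, 84 and 164 CPM to 2.45, 5.29 and 11.9 CPM (−4.27, SE 0.37, adjusted p = 6.4e-07), and Tead4, a Hippo effector, by 3.12 (SE 0.23, adjusted p = 1.39e-07). Cdx2 and Elf5, which define trophoblast, did not pass, at up to 2.65 and 0.812 CPM in established cells, though Cdx2 was called higher with DESeq2 (adjusted p = 0.042) and without PGK diff2 at day 29 (0.0461). Two-cell stage genes were near the detection limit: 2 of 8 could be tested, and the list summed to at most 3.83 CPM in 2i and 0.698 CPM in established cells.

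Smooth muscle and fibroblast genes were higher in established cells. Of 14 members 11 rose and 0 fell (median 6.57), and the sum went from 0 to 30 CPM in 2i to 140 to 594 CPM. Tagln, an actin-binding smooth muscle gene, rose from 1.09, 1.17, 1.05 and 0 CPM to 16.9, 124 and 200 CPM (6.92, SE 0.58, adjusted p = 4.45e-07). Acta2, smooth muscle actin, had 2 counts in 2i and measured 29.9, 81.2 and 159 CPM in established cells. Collagen Col1a2 rose from at most 0.44 CPM to 25, 62.5 and 130 CPM (8.43, SE 0.73, adjusted p = 5.51e-07). The collagen gene Col3a1 had 1 count in 2i and measured 5.48, 19.8 and 62 CPM later, and Postn, a matrix protein gene, rose to 1.78, 13.7 and 17.7 CPM (5.44, SE 0.81, adjusted p = 9.57e-05). Lum, Thy1 and Pdgfrb did not pass, though Thy1 did without the PGK diff2 2i library (adjusted p = 0.0336) and Pdgfrb without the coded 2i libraries (0.0348). Dcn, with no counts in 2i, was at least 15.8-fold higher and reached at most 2.22 CPM. The lowest established sum, 140 CPM, was that of E14 diff3 at day 19, against 401 to 594 CPM in the other 7. In 2i 5 to 14 of the 14 members had no counts in a library, and in established cells 0 to 2. How far other cell types in the cultures contribute to the lineage values was not tested.

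**Figure D3:**
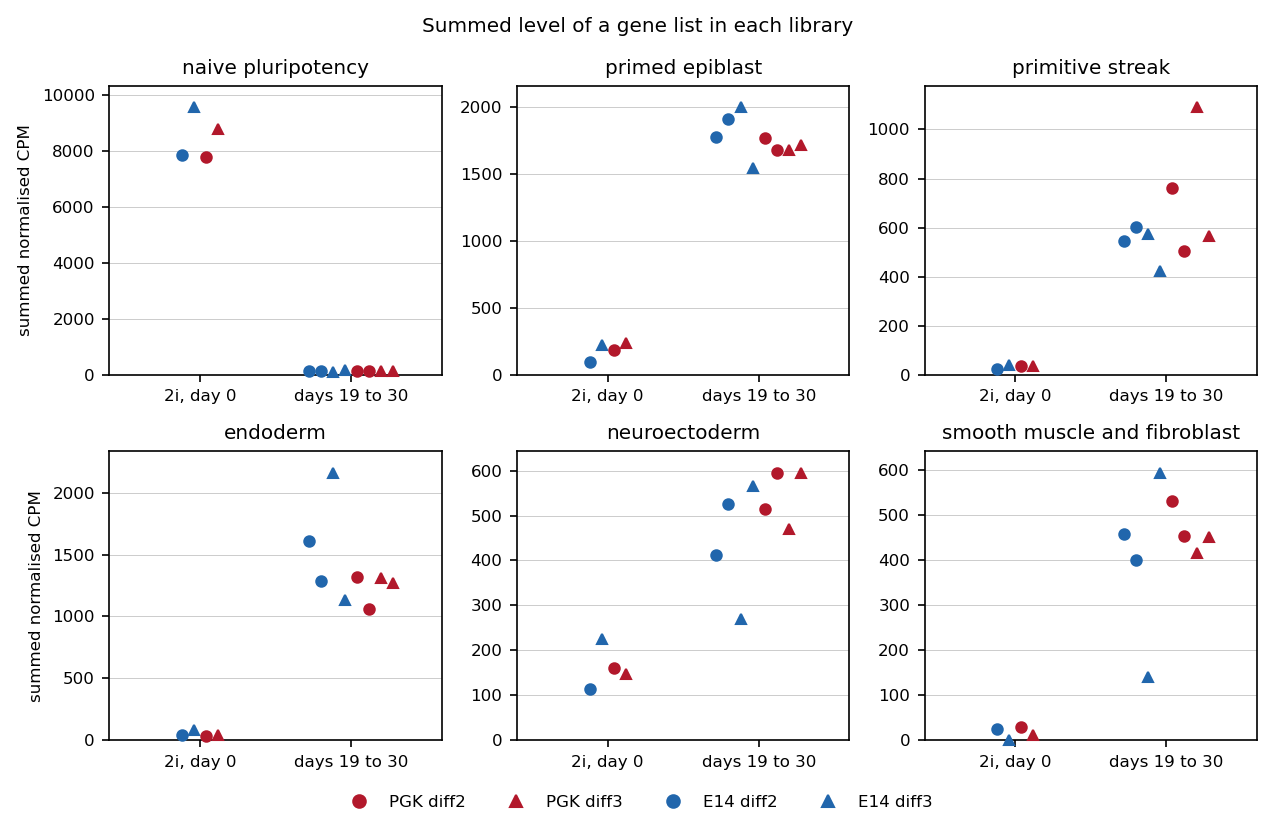
Summed normalised CPM of 6 gene lists in each library, on linear axes that start at 0, for 2i cells and for established cells of days 19 to 30; colour gives the line and symbol the differentiation. The triangle of E14 diff3 at day 19 is highest for endoderm, at 2160 CPM, and lowest among established cells for smooth muscle and fibroblast, at 140 CPM, and neuroectoderm, at 269 CPM.

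Most epithelial genes rose in established cells, while E-cadherin did not pass. Of 13 members 9 rose and 1, Cldn4, fell (median 2.85). Cdh1, which encodes E-cadherin, did not pass, at 760, 906, 788 and 960 CPM in 2i and 546, 882 and 1100 CPM later. Epcam, an adhesion molecule, rose from 25.1, 29.7, 41.6 and 32.1 CPM to 186, 326 and 522 CPM (3.29, SE 0.2, adjusted p = 1.86e-08). Krt18, a keratin of simple epithelia, rose from 4.46, 2.93, 8.03 and 1.19 CPM to 342, 488 and 830 CPM (6.86, SE 0.39, adjusted p = 1.11e-08), and its partner Krt8 by 5.27 (SE 0.33). The groups were far apart for each of these. Esrp1, a splicing regulator of epithelial isoforms, rose by 7.1 (SE 0.26, adjusted p = 1.76e-10), from at most 1.35 CPM to at least 118 CPM.

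Mesenchymal markers did not move as a block: of 8, 4 rose and 2 fell (median 0.98), against 23.5% and 23.3% over all genes tested. Cdh2, or N-cadherin, rose from 1.51, 3.18, 1.65 and 0.595 CPM to 123, 134 and 218 CPM (6.29, SE 0.31, adjusted p = 2.17e-09). Zeb2, a zinc finger repressor, rose from at most 0.168 CPM to 11.7, 23.5 and 36.6 CPM (7.75, SE 0.58, adjusted p = 1.39e-07). Fn1, or fibronectin, fell from 2260, 2800, 4560 and 5020 CPM to 507, 735 and 1320 CPM (−2.19, SE 0.24, adjusted p = 6.01e-06). Zeb1 was called lower at the threshold (adjusted p = 0.044), but not without the 2i library of PGK diff3 (adjusted p = 0.149) or E14 diff3 (0.144). Its call was also lost without PGK diff2 at day 23 or 29, E14 diff2 at day 21 or 27, or E14 diff3 at day 19. Twist1 was called higher (adjusted p = 0.0302) but not without the 2i library of E14 diff2 or PGK diff3, PGK diff3 at day 21, or E14 diff3 at day 19 or 30 (adjusted p up to 0.0864). Of 11 basement membrane genes 4 rose and 5 fell, against 23.5% and 23.3% over all genes tested. The nidogen gene Nid1 fell from 933, 876, 1010 and 917 CPM to 30.4, 34.3 and 55.2 CPM (−4.65, SE 0.15, adjusted p = 6.49e-11). Laminin Lama1 fell by 4.1 (SE 0.21), while Lamb1 rose by 2.97 (SE 0.15) and collagen Col4a1 by 5.15 (SE 0.63).

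DNA methylation genes changed in both directions. Of 12 members 3 (Dnmt3a, Dnmt3b and Tet3) rose and 5 fell (median −0.67), against 23.5% higher and 23.3% lower over all genes tested. Dnmt3b, a de novo methyltransferase, measured 47.3, 43.3, 27.9 and 25.9 CPM in 2i and 646, 839 and 1040 CPM in established cells (4.54, SE 0.23, adjusted p = 2.46e-09), and Dnmt3a rose by 2.43 (SE 0.28, adjusted p = 8.38e-06). Of the genes whose products oxidise methylcytosine, Tet3 rose by 2.22 (SE 0.5, adjusted p = 0.00246), while Tet1 and Tet2 fell by 2.29 (SE 0.18) and 3.84 (SE 0.27), Tet2 from 167, 444, 307 and 427 CPM to 13.6, 20.3 and 43.5 CPM. The maintenance factor Uhrf1 fell by 1.3 (SE 0.18, adjusted p = 4.66e-05), and Zfp57, which protects imprints, from 327, 591, 568 and 1020 CPM to 64.2, 85.1 and 108 CPM (−2.83, SE 0.17, adjusted p = 1.86e-08). Dnmt1, the maintenance methyltransferase, was called lower (−0.72, SE 0.17, adjusted p = 0.0027), but not without the coded 2i libraries (adjusted p = 0.2) or in E14 alone (adjusted p = 0.102). DNA methylation itself was not measured here.

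Germ line genes, a set known to be silenced by promoter methylation in somatic and primed cells, were mostly lower in established cells than in 2i. To show what these promoters look like, the 250 bases before the RefSeq start (GRCm38.p6) are printed 5′ to 3′ on the gene's strand for the first 3 members of the list that were called, with each CG in capitals. Ddx4, a germ cell RNA helicase gene, covers chr13:112652311-112652560 on the minus strand with 31 CG, Dazl, a germ cell RNA-binding protein gene, chr17:50293621-50293870 on the minus strand with 20, and Mael, of the piRNA pathway, chr1:166238745-166238994 on the minus strand with 18.
Ddx4: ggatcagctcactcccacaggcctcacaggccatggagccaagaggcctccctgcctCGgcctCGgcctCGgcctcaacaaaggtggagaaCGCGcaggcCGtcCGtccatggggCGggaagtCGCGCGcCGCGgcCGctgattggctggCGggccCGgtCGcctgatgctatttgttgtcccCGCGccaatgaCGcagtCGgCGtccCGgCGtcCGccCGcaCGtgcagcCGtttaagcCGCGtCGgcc
Dazl: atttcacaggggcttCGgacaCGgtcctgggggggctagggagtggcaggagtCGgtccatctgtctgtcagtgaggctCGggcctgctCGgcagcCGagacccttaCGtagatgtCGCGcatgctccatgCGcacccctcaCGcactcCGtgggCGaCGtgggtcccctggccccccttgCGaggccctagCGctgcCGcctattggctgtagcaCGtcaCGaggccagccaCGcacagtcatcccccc
Mael: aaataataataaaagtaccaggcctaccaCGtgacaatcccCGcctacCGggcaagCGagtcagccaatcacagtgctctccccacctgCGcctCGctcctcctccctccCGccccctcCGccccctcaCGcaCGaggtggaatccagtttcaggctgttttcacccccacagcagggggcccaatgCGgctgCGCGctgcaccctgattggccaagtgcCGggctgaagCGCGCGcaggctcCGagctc
Over 19 of the 20 germ line members with a promoter in the RefSeq table, the median was 16 CG in 250 bases, against 15 over 11241 promoters of tested genes and 6 over all 27025. The E-box CACGTG, which reads the same on both strands, was in 9 of the 19 (47.4%), against 8.37% of the promoters of tested genes and 6.04% of all promoters. TCCCGC on either strand was in 6 of the 19 (31.6%), against 29.7% and 16.9%. A match is a description of the letters in this window.

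Of 19 germ line members tested 16 fell, 1 rose and 2 did not pass (median −7.86), and the list of 20 summed to 225 to 1190 CPM in 2i and 53 to 128 CPM in established cells. Ddx4 measured 4.79, 3.42, 12.4 and 14.6 CPM and then 0, 0.202 and 0.599 CPM (−5.27, SE 0.66, adjusted p = 2.09e-05). Dazl measured 130, 95.5, 82.7 and 12.2 CPM and then 0, 0.0795 and 0.434 CPM (−9.42, SE 0.74, adjusted p = 2.25e-07). Both fell without overlap. Mael stood at 3.2, 2.49, 7.66 and 0 CPM in 2i and at most 0.252 CPM later, and was not called without the coded 2i libraries (adjusted p = 0.0546). Hormad1, Syce1 and Sohlh2, of meiotic chromosome axes, the synaptonemal complex and germ cell transcription, had no counts in any established library and were at least 2090-fold, 2710-fold and 4140-fold lower. The bounds rest on the mean of 4 unlike 2i libraries: Hormad1 measured 53.5, 67.1, 18.5 and 0.297 CPM, and without the PGK diff2 library the bound of Sohlh2 was 2460-fold. Rpl10l, a testis copy of a ribosomal protein gene, was at least 7390-fold lower after 141, 186, 93.3 and 74.3 CPM.

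Not every germ line gene was off. Tdrkh, a Tudor domain gene of the piRNA pathway, rose from 1.77, 0.489, 1.13 and 0 CPM to 33.5, 47.8 and 70.7 CPM (5.64, SE 0.49, adjusted p = 5.83e-07). Sycp3, a synaptonemal complex gene, did not pass, at 10.2, 12.5, 39.1 and 16.4 CPM against 2.57, 17 and 41.9 CPM, and neither did Brdt. Sycp1 kept 4.23 to 33.8 CPM in established cells and was called lower (adjusted p = 0.0352), but not without the 2i library of PGK diff2 (adjusted p = 0.116), PGK diff3 (0.0824) or E14 diff2 (0.0597). The call of Sycp1 was also lost without PGK diff2 at day 23 or 29, PGK diff3 at day 21, E14 diff2 at day 27 or E14 diff3 at day 19. The 2i levels differed between libraries, and up to 8 of the 20 members had no counts in a 2i library, against 7 to 16 in an established one. In the E14 libraries alone 9 members fell, against 16 over both lines.

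**Figure D4:**
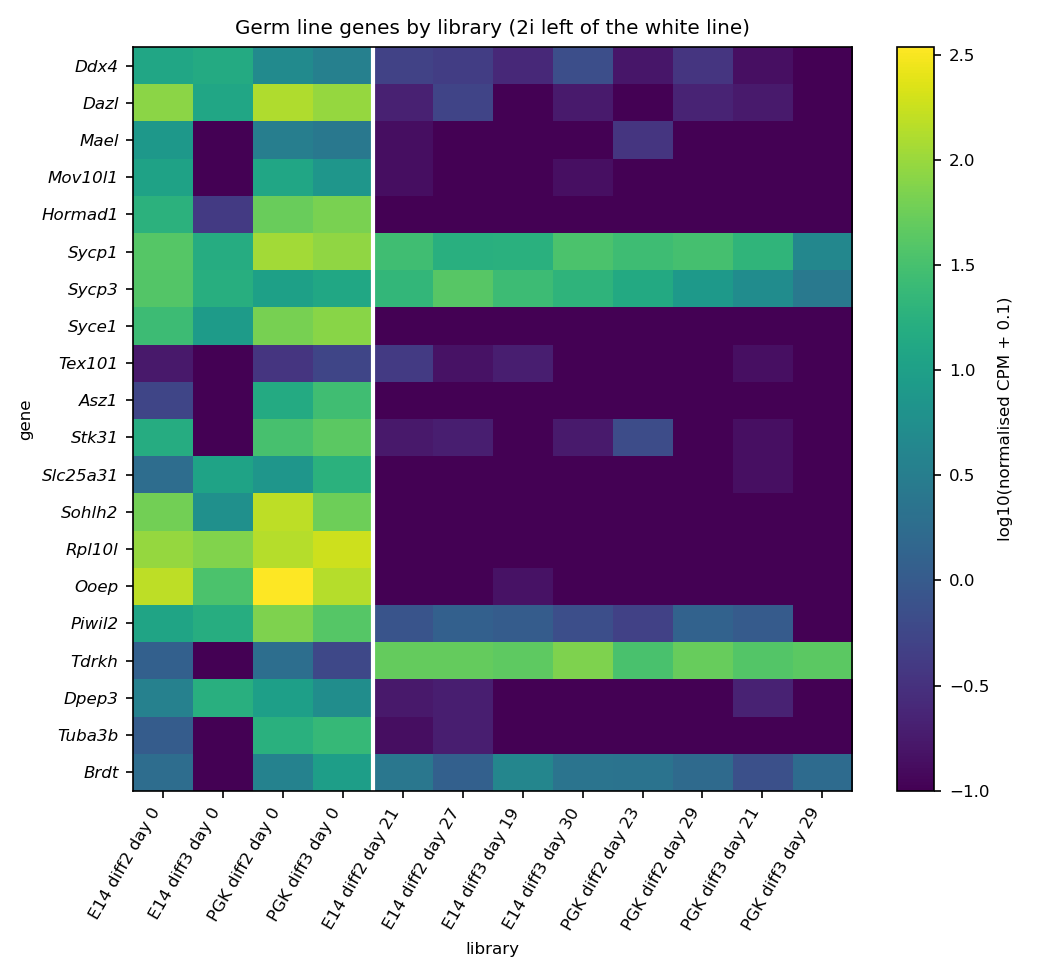
Heat map of 20 germ line genes (rows) in the 12 libraries (columns), coloured by log10 of the normalised CPM plus 0.1, with the 4 libraries of 2i cells left of the white line. Most rows are dark in all 8 established libraries, while Sycp1, Sycp3 and Brdt stay lit and Tdrkh is brighter there, at 33.5 to 70.7 CPM.

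Lin28 genes and published let-7 targets were higher in established cells, with 7 of 10 higher and 1 lower (median 1.02). Lin28a, whose protein blocks let-7 maturation, measured 8.16, 5.09, 22.6 and 59.2 CPM in 2i and 436, 496 and 619 CPM later (4.84, SE 0.48, adjusted p = 2.02e-06), and Lin28b rose by 3.62 (SE 0.29, adjusted p = 2.83e-07). Hmga2, a chromatin protein, rose from 12, 87.6, 8.79 and 62.8 CPM to 201, 244 and 311 CPM (2.59, SE 0.52, adjusted p = 0.00102). Each pair of groups was separate. The change of Lin28a was smaller in E14 than in PGK, with a log2 difference of −2.36 (SE 0.43, adjusted p = 0.0356). Trim71, a ubiquitin ligase gene, was the member called lower (adjusted p = 0.0348), but not without the shallow 2i library (adjusted p = 0.128) or with the differentiation as a block (0.0545). Its call was also lost without the 2i library of E14 diff2, PGK diff3 at day 21 or E14 diff3 at day 30.

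Of 22 imprinted genes 14 rose and 2 fell (median 1.9), and the list summed to 1450 to 2260 CPM in 2i and 5360 to 9120 CPM later. Peg3, a paternally expressed zinc finger gene, rose from 57.7, 55.2, 37.5 and 39.3 CPM to 602, 977 and 1370 CPM (4.36, SE 0.2, adjusted p = 9.15e-10). Mest, a paternally expressed hydrolase gene, rose by 3.94 (SE 0.35, adjusted p = 6.96e-07) and Snrpn by 1.96 (SE 0.19, adjusted p = 2.03e-06). Several members reached unlike levels in the lines. The noncoding H19 measured 273, 276, 181 and 351 CPM in the late PGK libraries and 0.918, 0.675, 9.34 and 0.599 CPM in those of E14. The neighbouring growth factor gene Igf2 measured 99.3, 137, 97 and 42.7 CPM in PGK and 792, 218, 2450 and 550 CPM in E14. Both genes were called higher over the 2 lines, H19 with overlap (adjusted p = 0.00232) and not in E14 alone (adjusted p = 0.333). Igf2r, the receptor that clears Igf2, stood at 68.2, 121, 72.7 and 59 CPM in late PGK and 299, 257, 310 and 294 CPM in late E14 libraries. Grb10, a signalling adaptor, stood at 743, 971, 222 and 1020 CPM against 3790, 3600, 2950 and 2820 CPM. Igf2r was called lower over both lines (adjusted p = 0.00654), but not in E14 alone (−0.14, adjusted p = 0.676). Its call was also lost with late libraries summed (0.0637), days 19 to 23 alone (0.067) and days 27 to 30 alone (0.0634). The difference of the change between lines did not pass for H19 (adjusted p = 0.339), Igf2 (0.791), Igf2r (0.052) or Grb10 (0.402). In the E14 libraries alone 9 members were called higher.

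Metabolic genes followed in part. Of 12 genes of threonine, glycine, serine and betaine metabolism 6 fell and 1 rose (median −0.54), against 23.3% lower and 23.5% higher over all genes tested. Among the betaine genes Bhmt, betaine-homocysteine methyltransferase, measured 5.05, 49, 9.09 and 26.5 CPM in 2i and had no counts in established cells. It was at least 1340-fold lower, or 810-fold without the PGK diff3 2i library. Dmgdh, dimethylglycine dehydrogenase, fell from 32.1, 109, 78.6 and 104 CPM to 0, 0.0551 and 1.82 CPM (−8.43, SE 0.98, adjusted p = 9.48e-06). Phgdh, of serine synthesis, was the gene that rose, with overlap (0.75, SE 0.19, adjusted p = 0.00473). Of 18 glycolysis genes 9 rose and 4 fell (median 1.07), against 23.5% higher and 23.3% lower over all genes tested. The glycolysis list summed to 5430 to 8370 CPM in 2i and 6300 to 13900 CPM in established cells, with overlap. Ldha, lactate dehydrogenase, rose from 507, 383, 465 and 234 CPM to 1160, 1880 and 2270 CPM (2.17, SE 0.22, adjusted p = 2.76e-06) and Pkm, pyruvate kinase, by 0.87 (SE 0.13, adjusted p = 0.000106). Pfkp, a phosphofructokinase, fell by 3.43 (SE 0.34) and the hexokinase Hk1 by 1.8 (SE 0.17), each without overlap. Several glycolysis genes have near-identical copies elsewhere in the genome, so their levels are uncertain.

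Cell cycle genes were split, with 6 of 13 higher and 3 lower (median 0.23), against 23.5% and 23.3% over all genes tested. The D cyclins differed in direction, with Ccnd1 among those that rose: Ccnd2 rose from at most 0.733 CPM to 29, 88.4 and 173 CPM (7.42, SE 0.57, adjusted p = 1.73e-07), and Ccnd3 fell from 374, 387, 268 and 335 CPM to 83.9, 103 and 122 CPM (−1.71, SE 0.11, adjusted p = 3.09e-08). Cdkn1a, the inhibitor p21, fell by 1.69 (SE 0.27, adjusted p = 0.00016), and the proliferation gene Mki67 rose by 0.88 (SE 0.19, adjusted p = 0.00158). Of 10 interferon response genes 5 rose and the 3 Ifitm members, which share similar sequences, fell, against 23.5% and 23.3%. The interferon response list summed to 341 to 992 CPM in 2i and 232 to 466 CPM in established cells, with overlap. Usp18, an interferon-induced protease gene, rose from at most 0.147 CPM to 2.34, 11.4 and 29.9 CPM (7.22, SE 1, adjusted p = 4.69e-05). Ifitm2 fell by 0.97 (SE 0.17, adjusted p = 0.000336). With days 27 to 30 alone, or in E14 alone, 3 interferon response members were called higher.

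The largest fitted rises, among genes that reached a median of 5 CPM without overlap, were mostly genes with no counts in any 2i library. A fitted fold is not limited by the counts where a group is at 0. Such genes therefore lead these rises, and the falls below, by construction. Most bounds given here are smaller than the rise of Lhx1 (log2 fold change 9.47), which had counts in 2i. Spink3, a secreted protease inhibitor, measured 33.3, 46.2 and 352 CPM in established cells and was at least 1450-fold higher. Without the E14 diff3 library of day 19, the highest of the 8, the bound was 839-fold. The others at 0 in 2i were Aff2 (at least 416-fold), the neuronal protease gene Prss12 (394-fold), the metalloprotease gene Adamts6 (349-fold), the cannabinoid receptor gene Cnr1 (277-fold), Smoc2 (274-fold), Wnt5a (204-fold), Leprel1 (183-fold), Lypd6b (177-fold) and Jakmip2 (157-fold), each at least that much higher. Wnt5a, a noncanonical Wnt ligand, ranged narrowly, from 9.37 to 16.3 CPM over the 8 libraries, and Cnr1 from 12.3 to 19.9 CPM. Among the largest falls outside the germ line list, Accsl was at least 4350-fold lower after 19.9, 43.2, 105 and 123 CPM in 2i, and Fkbp6, a meiotic chaperone gene, at least 2680-fold lower after 62.5, 71.3, 20.3 and 24.7 CPM. Crxos1, a homeobox gene of early embryos, had 1 count in the established libraries after 56.8 to 67.9 CPM in each of the 2i libraries, and Trpm1 had 6 after 74.3 to 234 CPM.

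Among the established libraries the spread differed from list to list. The median SD of log2 CPM over the 8 libraries was 0.26 over 10690 genes with a mean of at least 5 CPM. The highest medians of the lists were those of 3 germ line genes (0.92), 8 interferon response genes (0.84), 10 smooth muscle and fibroblast genes (0.82), 6 neuroectoderm genes (0.8), 8 primitive streak genes (0.74), 5 trophoblast genes (0.68) and 19 imprinted genes (0.68). It was 0.57 for 11 endoderm genes, 0.39 for 14 primed epiblast genes, 0.25 for 10 DNA methylation genes and 0.22 for 10 Lin28 and let-7 genes. These are descriptions of lists and no test was made.

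The change from 2i to established cells differed between PGK and E14 for 49 of 15361 genes (0.319%; edgeR test of the product of line and state), 40 of them more positive in E14 (0.26%) and 9 in PGK (0.0586%). At an unadjusted p under 0.05 there were 1933. With the late libraries of each differentiation summed, 0 genes passed. Lgals1, a galectin gene, rose less in E14, with 20.7 and 14.5 CPM in PGK and 59.4 and 69.6 CPM in E14 2i cells and 117 to 246 CPM later (difference −2.48, SE 0.3, adjusted p = 0.00399). Prnp, the prion protein gene, rose more in E14, from 76.1 and 32.2 CPM in PGK and 7.58 and 0.595 CPM in E14 2i cells to 93.9 to 121 CPM in PGK and 162 to 188 CPM in E14 established cells (difference 4.04, SE 0.66, adjusted p = 0.0237). Gata6, Gata3, Vim and Lin28a, members of the lists above, were also among the 49.

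Of the 49 genes 23 were X-linked, which is 3.8% of 605 X-linked genes tested against 0.177% of 14678 autosomal genes. For 22 of the 23 the change was more positive in E14. Efhc2 measured 146 and 143 CPM in PGK 2i cells and 1.43 and 0.297 CPM in E14 2i cells, against 2.37 to 4.16 CPM in all established libraries (difference 7.32, SE 0.63, adjusted p = 0.000433). The uncharacterised 1700013H16Rik showed the same layout, with 125 and 101 CPM in PGK 2i cells, at most 0.901 CPM in those of E14 and at most 2.09 CPM later (difference 7.53, SE 1.01, adjusted p = 0.00726). Bhlhb9 and Nudt11 were higher in PGK than in E14 2i cells and level between the lines afterwards, with differences of 2.07 (SE 0.26, adjusted p = 0.00609) and 2.87 (SE 0.43, adjusted p = 0.0132). Over all X-linked genes tested the median log2 fold change was −0.76 in PGK and 0.67 in E14, against −0.02 and 0.15 over autosomal genes.

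The sum over 604 X-linked genes without Xist was 51300 and 52700 CPM in PGK 2i cells and 36600, 34800, 34200 and 34900 CPM in PGK established cells. In E14 it was 28400 and 28300 CPM in 2i and 39400, 38300, 42800 and 37900 CPM in established cells. The PGK sums thus lay lower and the E14 sums higher in established cells, without overlap within either line, and no test was made on them. Xist, the noncoding RNA that coats the inactive X in female cells, measured 13 and 32.8 CPM in PGK 2i cells and 1320, 412, 970 and 914 CPM in PGK established cells. In E14 it measured 16.2 and 0.595 CPM in 2i and 2.39, 2.02, 1.37 and 1.44 CPM later. Its change differed between the lines (−7.72 in E14 minus PGK, SE 1, adjusted p = 0.00609), and over both lines together it was not called. In PGK alone Xist was called higher (5.3, adjusted p = 0.000217). Without the E14 diff2 2i library its fitted change over both lines was 5.2. Tsix, its antisense partner, was called lower (−3.78, SE 0.55, adjusted p = 8.03e-05); the strand used in counting is not given in the sources used here, so reads of the 2 genes may not be told apart. The number of genes that differ between lines moved with the libraries and the fit. It was 3 with the late libraries summed and the differentiation as a block, 19 with the block alone, and 601 with DESeq2. Without any single late library it was 16 to 30. Without single 2i libraries it was 99 without PGK diff3, 85 without the shallow E14 diff3 library, and 4119 without E14 diff2, which leaves the shallow library as the sole E14 sample of 2i. The X-linked median exceeded the autosomal median of the line difference by 1.18 on the log2 scale, by 1.22 without the shallow library and by 2.24 where it was the sole E14 library of 2i.

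**Figure D5:**
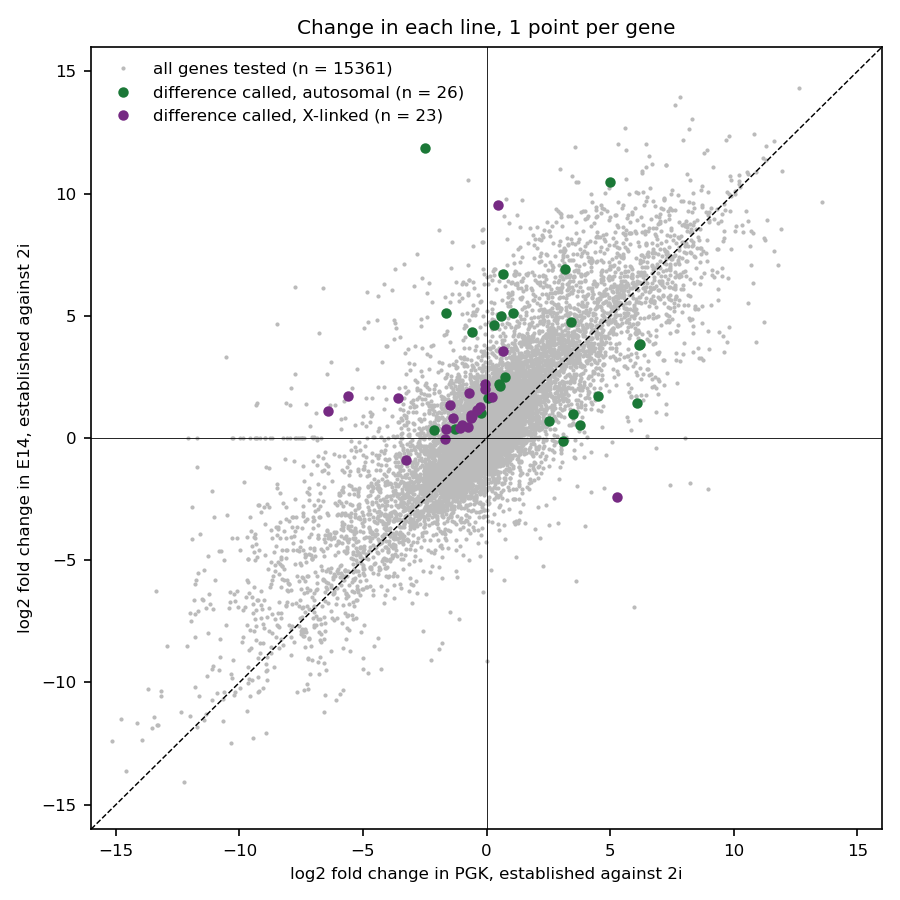
Log2 fold change of established against 2i cells in PGK (horizontal axis) and in E14 (vertical axis), 1 point per gene tested, with the dashed line marking equal change. Coloured points are the 49 genes whose change differed between the lines, 26 not X-linked (green) and 23 X-linked (purple), of which 22 lie above the line.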

How the data were processed

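The mRNA of 12 libraries was analysed, 4 of 2i cells and 8 of established epiblast stem cells. The authors deposited raw counts per gene, counts divided by a size factor (a signal, not used here) and variance-stabilized log2 values, per the file headers and the labels. Per the submitters' processing notes CASAVA 1.8.2, Cuffdiff, DESeq2 and the build GRCm38 (mm10) were used; the libraries were stranded per the labels, and aligner, annotation and strand setting were not given in the sources used here. The count tables of the lines were joined on gene name, 4 of 23361 entries with repeated names were left out, and 27 bear names turned into dates.

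The raw counts were tested with edgeR 4.0.16 in R 4.3.3 (TMM, filterByExpr with a minimum count of 10, robust quasi-likelihood, line and state as terms, Benjamini-Hochberg, threshold 0.05). The common biological coefficient of variation was 0.478 with 9 residual degrees of freedom. Alternatives were DESeq2 1.42.0, limma 3.58.1 on the deposited log2 values, RLE size factors, no low-count filter, the differentiation as a block, late libraries summed, days 19 to 23 or 27 to 30 alone, each line alone, no coded 2i libraries, a 2-fold minimum, and each library left out. Tested on simulated data of 15361 genes, the test of state found 53 of 100 genes set to change 4-fold and 19 of 100 set to change 2-fold. Only these genes changed in the simulation, far fewer than the 7184 called here. An adjusted p is harder to reach where few genes change, so this recovery does not measure that of the data. The test of the line difference found 11 and 0 of 100. A gene that did not pass may still have changed. Nothing says that the 4 differentiations came from separate thaws, so p-values measure the spread between these samples, and intervals of counts cover counting error only.

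Genes were named by a rule: the 4 markers, the first 3 genes of each list and up to 4 more by adjusted p, the 12 largest rises and falls (median of at least 5 CPM in the higher group, no overlap, same direction in both lines, no predicted genes), and the 8 autosomal and 4 X-linked called genes with the smallest p of the line difference. This named 206 genes, and 34 further list members were named after their values were seen; some of these are not reported here. The comparison, its members and the 27 lists were chosen with earlier results of these data known. A bound ("at least") uses 3 counts over the group at 0 (bounds without single libraries were added after seeing the data), and genes with 1 to 3 counts in a group are given as levels. Some lists share members. Same-numbered libraries of a line come from the same differentiation per the labels, which pairs them; their deviations from the group means correlated at −0.098 to 0.043 between day 0 and late libraries.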

Additional observations from a re-analysis of the deposited data

Results flagged for a closer look

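Libraries far from the others of their state were looked for in 378 pairs of a named gene and a state, with Dixon's test at the 95% level, which flags about 1 in 20 by chance, and 37 were found. Of these 18 fell on the E14 diff3 library of day 19. Its values lay far above the other 7 established libraries for Sox17 (198 CPM), Foxa1 (85.6), Cxcr4 (193), Hhex (235), Otx2 (532), Cldn6 (369), Dkk1 (215), Krt7 (55.6), Ascl2 (16.5), Igf2 (2450), Ifitm2 (155), Spink3 (352) and Leprel1 (22.2). They lay far below for Pim3 (20.2 CPM), Uhrf1 (141), Tet1 (102), Trim71 (28.7) and Hk2 (121).

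Among the other established libraries, PGK diff2 at day 23 lay far above for Dppa4 (7.42 CPM), Zfp42 (4.15), Isg15 (32.1) and Oasl2 (27.1). PGK diff3 lay far above at day 21 for Mixl1 (73.7 CPM), Tfap2c (11.9) and Cdh2 (218), and at day 29 for Dppa2 (3.4) and Smad7 (65.1), while Tbx6 was at 0 there. E14 diff3 at day 30 lay far above for Fgf15 (40.4 CPM) and Nid1 (55.2). Among 2i libraries the shallow E14 diff3 library lay far above for Sox1 (31.8 CPM) and Tfap2c (164) and was at 0 for Tagln. E14 diff2 lay far above for Spred1 (31.5 CPM), PGK diff2 for Phgdh (70.0) and Thy1 (11.1), and PGK diff3 for Peg10 (674).

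The change of 10 named genes differed between the lines by the test of that difference. As log2 change in E14 minus PGK it was 4.04 for Prnp, 4.41 for Lats2, 7.32 for Efhc2, 2.07 for Bhlhb9, 7.53 for 1700013H16Rik and 2.87 for Nudt11. It was negative for Lgals1 (−2.48), Trim56 (−4.66), Ece1 (−2.8) and Ccnjl (−3.26). No explanation of these differences was tested.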

How the results depend on the processing

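Of 7184 called genes 52.3% to 97.3% stayed called under the alternatives, and 1 called gene changed direction while called, without the coded 2i libraries. Fewer libraries gave fewer calls: 4524 with days 19 to 23 (2322 higher, 2202 lower), 4120 with days 27 to 30 (2064 and 2056) and 4154 in E14 (2268 and 1886). Leaving out single libraries gave 6311 to 8351 calls, 3191 to 3979 higher and 3120 to 4372 lower, with the most, 8351, without the shallow 2i library. With the differentiation as a replicate block, which pairs 2i and late libraries, 6558 genes were called. Of the named genes that block ended the calls of Sox21, Hesx1, Plac1, Lats2, Bhlhb9 and Trim71 (adjusted p of 0.0507 to 0.0689), gave one for Rax (0.0454) and changed no other. With late libraries summed and the block Rax did not pass (0.105). In the main fit its adjusted p was 0.0645, and it was called higher with DESeq2 (0.00709) and limma (0.0238). Late libraries summed per differentiation gave 5201, and with the replicate block 3783 (2158 and 1625).

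Genes that differ between lines numbered 49, but 601 with DESeq2, 263 with limma, 19 with the replicate block, 0 with late libraries summed, 3 with both, 0 with days 19 to 23 or days 27 to 30, 4220 without the coded 2i libraries and 16 to 4119 without single libraries, the highest without the E14 diff2 2i library. Without any single late library there were 16 to 30. The cause was not tested. Of the named genes 3 turned in a single line: Bhlhb9 to −0.04 in PGK, Efhc2 to 1.81 and 1700013H16Rik to 1.25 in E14, none called there. The median log2 change of all genes, 0.03, was 0.141 with limma, 0.19 in E14 alone, 0.181 with late libraries summed and the block, and 0.245 without the coded libraries. The depth of the shallow 2i library limits low genes. With DESeq2 4325 and 3699 genes were called higher and lower, with limma 4067 and 3125, and without the E14 diff3 differentiation, chosen after seeing the data, 3606 and 4104.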
